A study of Mus musculus with 68 samples.

Results

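The 45 genes described here act in the G2 phase of the cell cycle and in mitosis. They were taken as a fixed list of mouse symbols, with earlier results of these data known but not by a cut on a measured value. All 45 were found among the 27179 Entrez gene identifiers of a table of raw read counts from mesenchymal stromal cells, the adherent connective tissue cells that grow out of bone and marrow. The cells were grown from the long bones of mice and sequenced as 17 RNA libraries, 1 per biological sample. The groups are Het at 12 months (Het 12M, n = 6), WT at 12 months (WT 12M, n = 4), Het at 3 months (Het 3M, n = 3) and WT at 3 months (WT 3M, n = 4). By the labels, 5 Het 12M libraries are female and 1 male, 1 Het 3M library is female and 2 are male, and WT 12M and WT 3M have 2 of each sex. The study's design names 4 comparisons of these groups, Het against WT at each age and 12 months against 3 months within each genotype, with 3 biological samples per group; more are in the table for 3 of the 4 groups. Het mice are Ezh2 fl/+ and carry a Cre transgene that the labels write as Prxx-1-Cre, and WT mice are Ezh2 +/+ with Prrx-1-Cre, so that all 4 groups have Cre. Prrx1-Cre is active in the limb mesenchyme, so other cells in a culture keep both Ezh2 alleles. The Ezh2 protein is the catalytic subunit of PRC2, a Polycomb complex that methylates histone H3, and only 1 allele is floxed in Het cells.

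A dividing cell makes most of these transcripts in a wave that starts after DNA replication and ends when the cell has divided. Cyclins A and B with the kinase Cdk1 drive entry into mitosis. Aurora and Polo kinases build the spindle, and the kinetochore and the spindle checkpoint hold sister chromatids until all are attached. Cdc20 with the anaphase-promoting complex (APC/C) then releases separase and lets the cell divide. The factors Foxm1 and B-Myb, with the MuvB complex, switch the wave on, and the DREAM complex keeps it off in resting cells through the CHR element of the promoters. In bulk RNA from a culture, a lower level of these transcripts from fewer dividing cells and from less RNA per dividing cell cannot be told apart.

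Promoter windows from 250 bases before to 50 bases after the annotated start were in the RefSeq table (GRCm38.p6) for 36 of the 45 genes. The 9 without an entry are Aurkb, Ccna2, Cdc25c, Dlgap5, Foxm1, Incenp, Kif20a, Spc24 and Tpx2. The CHR element, searched as TTTGAA on both strands, was in 27 of the 36 windows (75.0%), against 20.2% of the 27025 genes of the table and 14.2% of the 11316 tested genes in it. The CCAAT box, searched as CCAAT on both strands, was also in 27 of 36, against 41.1% of all genes of the table and 42.5% of the tested genes. Both stood together in 24 of 36 (66.7%), against 7.97% of all genes and 5.70% of the tested genes. In 24 of the 36 genes a CHR element began within 50 bases of the start, a count not taken over all genes. An E2F site, searched as TTTCCCGC or TTTGGCGC on both strands, was in 1 of 36 (2.78%), against 1.80% of all genes and 3.28% of the tested genes. The motifs as searched can share a letter at their ends, and a match is a description of the sequence only. The windows of 3 genes with both motifs, the mitotic kinase genes Cdk1 (chr10:69352863-69353162, minus strand) and Plk1 (chr7:122159185-122159484, plus strand) and the cyclin gene Ccnb2 (chr9:70421505-70421804, minus strand), are printed here with that of the securin gene Pttg1 (chr11:43425932-43426231, minus strand), which had the narrowest range of the 45 genes outside Het 12M S15. The Pttg1 window holds neither motif, as do those of Birc5, Mad2l1, Mybl2, Nuf2 and Nusap1, among which the range outside S15 was from 4.21 times for Mad2l1 to 20.7 times for Mybl2, so that windows without these letters went with narrow and wide ranges. Each printed window runs 5′ to 3′ on the gene's strand, and capitals mark TTTGAA or CCAAT in either orientation.
Cdk1: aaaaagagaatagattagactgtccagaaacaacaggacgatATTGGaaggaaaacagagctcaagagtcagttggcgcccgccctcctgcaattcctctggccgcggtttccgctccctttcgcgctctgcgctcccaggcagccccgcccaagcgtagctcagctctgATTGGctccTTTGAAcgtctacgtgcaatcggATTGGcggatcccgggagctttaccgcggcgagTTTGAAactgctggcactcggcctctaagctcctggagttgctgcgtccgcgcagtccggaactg
Ccnb2: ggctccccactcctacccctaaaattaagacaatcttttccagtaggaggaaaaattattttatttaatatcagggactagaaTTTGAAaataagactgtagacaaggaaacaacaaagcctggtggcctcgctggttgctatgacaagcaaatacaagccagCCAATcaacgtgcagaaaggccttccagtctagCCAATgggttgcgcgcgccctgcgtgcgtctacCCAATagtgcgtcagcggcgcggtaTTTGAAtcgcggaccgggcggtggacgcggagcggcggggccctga
Plk1: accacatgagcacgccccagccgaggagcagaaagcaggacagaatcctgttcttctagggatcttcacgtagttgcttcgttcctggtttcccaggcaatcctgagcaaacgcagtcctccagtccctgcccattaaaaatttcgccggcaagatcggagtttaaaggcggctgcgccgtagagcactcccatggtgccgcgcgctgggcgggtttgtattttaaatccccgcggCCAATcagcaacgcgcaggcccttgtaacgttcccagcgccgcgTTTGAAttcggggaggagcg
Pttg1: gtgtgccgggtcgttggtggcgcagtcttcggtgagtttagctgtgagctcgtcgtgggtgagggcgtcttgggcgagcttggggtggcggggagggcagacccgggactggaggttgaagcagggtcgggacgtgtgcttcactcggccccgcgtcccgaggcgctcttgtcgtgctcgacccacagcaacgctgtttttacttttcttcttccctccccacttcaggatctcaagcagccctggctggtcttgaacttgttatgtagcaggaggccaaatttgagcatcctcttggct
Counting the annotated start as base 1 and the base before it as base -1, the CHR elements nearest to the start begin at base -15 in Cdk1, base 5 in Ccnb2 and base 31 in Plk1.

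The libraries held between 13687876 and 28597221 counts, and levels are given as CPM, the share of a library's counts multiplied up to a fixed total and scaled by the trimmed mean of M-values. Ezh2 itself had 8.62, 16.5, 16.2, 19.8, 20.1 and 25.2 CPM in Het 12M, against 7.64, 13.1, 22.8 and 35.7 CPM in WT 12M. Levels were 8.47, 11.8 and 12.8 CPM in Het 3M and 9.17, 13.4, 13.6 and 14.3 CPM in WT 3M. Its fitted log2 difference was -0.16 ± 0.36 (SE) for Het 12M against WT 12M and -0.19 ± 0.43 for Het 3M against WT 3M (edgeR adjusted p = 0.924 and 1). A gene total over all exons does not show whether the floxed allele was recombined. All 13 stromal markers were above 1 CPM in every library, with summed levels of 9466 to 34888 CPM in Het 12M, against 25999 to 38540 CPM in WT 12M. In Het 3M there were 22398 to 35336 CPM, and in WT 3M 16353 to 33955 CPM. The summed level of 15 macrophage markers was 37.3 to 2704 CPM in 5 Het 12M libraries and 41236 CPM in Het 12M S9, against 49.9 to 3110 CPM in WT 12M, and 160 to 1457 CPM in Het 3M against 166 to 1930 CPM in WT 3M. The summed level of 12 Schwann and neural crest markers was 28.3 to 110 CPM in Het 12M, 33.6 to 116 CPM in 3 WT 12M libraries and 1359 CPM in WT 12M S6. Het 3M had 49.5 to 120 CPM and WT 3M 36.0 to 114 CPM. Of 10 endothelial markers, summed levels were 6.74 to 22 CPM in Het 12M, 6.87 to 23.1 CPM in WT 12M, 10.1 to 53.5 CPM in Het 3M and 8.30 to 89.9 CPM in WT 3M, and none of the 8 lymphoid and erythroid markers was above 1 CPM in any library. Het 12M S15 had the lowest stromal sum and 488 CPM of the mitochondrial transcript COX1, against 4323 to 9331 CPM in the other 16 libraries. Its Col1a1, Col1a2, Col3a1, Prrx1 and Lum (1504, 1662, 897, 171 and 27.3 CPM) were the lowest of the series. Its Ly6a (2109 CPM) was the highest, and the rest of the stromal markers lay between the extremes of the other libraries. Xist and Y-linked transcripts went against the labelled sex in each of the 4 WT 12M libraries and in 0 of the other 13. Of these 4, 1 carried both, so each statement on WT 12M is about the libraries labelled so.

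The 45 genes were detected in every library: 43 had at least 1 CPM in all 17, and the lowest raw count of any of them was 9. Their summed level was 355, 786, 953, 957, 985 and 1384 CPM in Het 12M, against 395, 502, 1420 and 2197 CPM in WT 12M. Levels were 528, 565 and 661 CPM in Het 3M and 387, 475, 488 and 824 CPM in WT 3M. The 12-month groups were thus more spread out than the 3-month groups, and held both the highest and the lowest sum of the series. WT 12M S6 held the highest level of 29 of the 45 genes (64.4%), against 10.6% of all genes tested, and WT 12M S13 and Het 12M S15 each held the highest of 8 (17.8%), against 4.26% of all genes for S13 and 22.5% for S15. The lowest levels were in Het 12M S11 for 12 genes (26.7%), WT 3M S5 for 11 (24.4%), WT 12M S2 for 10 (22.2%) and WT 3M S12 for 8 (17.8%). In the same order, these libraries were the lowest for 3.26%, 14.5%, 5.09% and 3.91% of all genes tested. Another 4 libraries held the lowest level of 1 gene each.

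**Figure D1:**
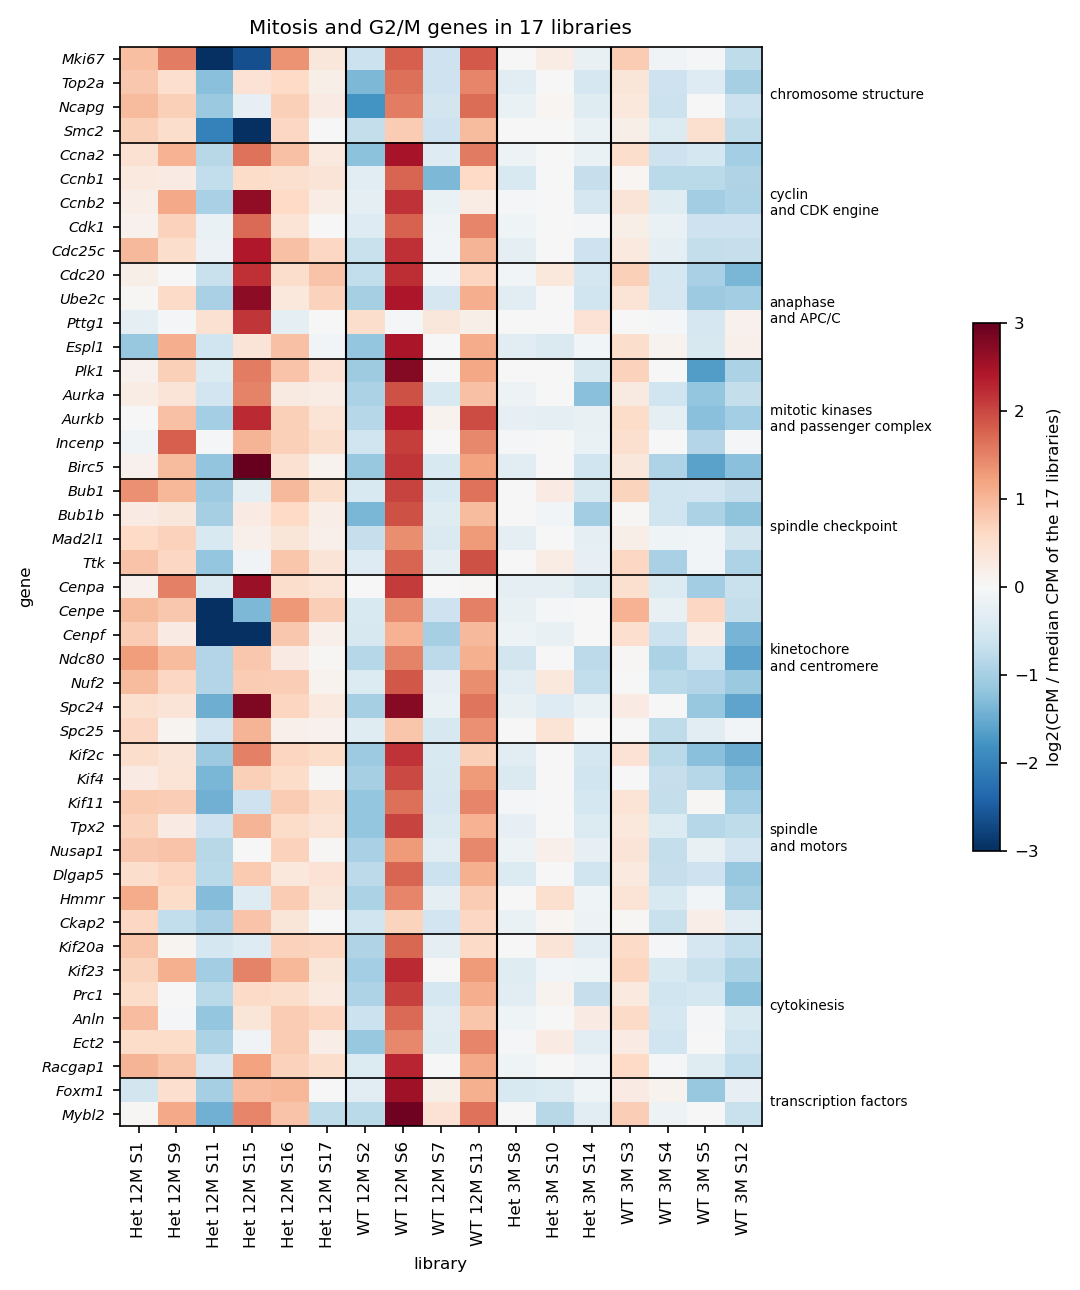
Level of each of the 45 genes (rows, grouped by role) in each of the 17 libraries (columns, by group) as log2 of CPM over the gene's median CPM, with the colour scale ending at -3 and 3. WT 12M S6 and S13 are high for nearly all rows, WT 12M S2 and Het 12M S11 are low, and Het 12M S15 is high in some rows and low in Mki67, Smc2 and Cenpf.

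The range over libraries was widest for Cenpf, whose highest level was 58.9 times its lowest, and for Mki67 (38.3 times) and Cenpe (26.8 times), all with their lowest level in Het 12M S11. It was narrowest for Ckap2 (3.57 times), Mad2l1 (4.21 times) and Spc25 (4.43 times).

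Among the chromosome structure genes, Mki67 encodes Ki-67, the coat protein of mitotic chromosomes that is used as a proliferation marker. Mki67 had 2.50 to 78.0 CPM in Het 12M (median 41.7), against 17, 17.2, 93.3 and 95.6 CPM in WT 12M. In Het 3M there were 23.0, 26.7 and 31.0 CPM, and in WT 3M 15.7, 24.8, 25.5 and 45.3 CPM. The 5 highest and the 2 lowest libraries were all of 12 months, and the groups overlapped. Top2a, the topoisomerase that untangles sister chromatids, had 22.1 to 92.2 CPM in Het 12M, against 20.7 to 167 CPM in WT 12M. Het 3M had 37.6 to 53.0 CPM and WT 3M 26.5 to 68.4 CPM. The condensin genes Ncapg and Smc2 ranged over 1.44 to 15.9 CPM and 2.49 to 44.2 CPM across all libraries, with both maxima in WT 12M S13.

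The cyclin and Cdk genes had their highest WT 12M level in S6 without exception. Cdk1, the kinase of mitotic entry, had 24.2 to 90.5 CPM in Het 12M (median 33.7), against 21.4, 26.1, 77.0 and 95.8 CPM in WT 12M. Levels were 25.7, 26.7 and 28.1 CPM in Het 3M and 18, 18.2, 24.1 and 31.7 CPM in WT 3M. The highest 3 Cdk1 levels of the series were thus WT 12M S6, Het 12M S15 and WT 12M S13. Its partner cyclin B2 (Ccnb2) had 4.50 to 56.2 CPM in Het 12M (median 11.8) and 7.18, 7.65, 10.2 and 39.4 CPM in WT 12M. In Het 3M there were 6.20, 8.41 and 8.82 CPM, and in WT 3M 4.28, 4.63, 6.85 and 11.4 CPM. For Ccnb2, S6 was the only WT 12M library above all 3-month libraries. Ccna2 (cyclin A2) ranged over 6.26 to 82.7 CPM, Ccnb1 (cyclin B1) over 2.37 to 20.6 CPM, and Cdc25c, a phosphatase that activates Cdk1, over 1.44 to 12.6 CPM.

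Of the genes of the metaphase to anaphase switch, Cdc20, the mitotic APC/C activator, had 10.1 to 73.3 CPM in Het 12M (median 20.8), against 9.65, 15.4, 25.1 and 75.6 CPM in WT 12M. Het 3M had 11.2, 15.2 and 20.2 CPM and WT 3M 6.29, 8.22, 11.2 and 26.4 CPM. Ube2c, the ubiquitin-conjugating enzyme of the APC/C, ranged over 7.21 to 98.6 CPM and had its highest levels in Het 12M S15 and WT 12M S6, as Cdc20 did. Espl1, which encodes separase, had 2.69 to 12.6 CPM in Het 12M and 2.64, 5.89, 12.7 and 32.0 CPM in WT 12M. Levels were 4.33, 4.63 and 5.57 CPM in Het 3M and 4.23, 6.36, 6.56 and 8.44 CPM in WT 3M. Pttg1, the securin that inhibits separase, behaved otherwise. It had 23.3, 23.3, 27.0, 28.1, 38.1 and 124 CPM in Het 12M, against 26.8, 31.4, 35.5 and 40.3 CPM in WT 12M. In Het 3M there were 27.6, 27.6 and 37.6 CPM, and in WT 3M 19.9, 26.8, 28.0 and 30.5 CPM. Without Het 12M S15 its highest level was 2.03 times its lowest, and among the WT 12M libraries S6 had the lowest Pttg1 and S2 the highest, the reverse of the other genes of this role.

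The mitotic kinases and the passenger complex, which corrects faulty kinetochore attachments, had their highest WT 12M level in S6, gene by gene. Plk1 (Polo kinase) had 6.32 to 24.4 CPM in Het 12M (median 12.5), against 3.96, 8.35, 18.7 and 56.3 CPM in WT 12M. Het 3M had 6.03, 8.30 and 8.31 CPM and WT 3M 2.6, 4.31, 8.28 and 13.4 CPM. The 3-month groups overlapped each other and both 12-month groups. Birc5 (survivin) had 4.85 to 90.8 CPM in Het 12M (median 13.6), against 5.05, 8.09, 25.6 and 48.4 CPM in WT 12M. Levels were 7.34, 8.91 and 11 CPM in Het 3M and 3.65, 4.63, 5.81 and 14 CPM in WT 3M. In WT 12M the order was S6, S13, S7 and S2 for both genes, and in Het 12M S15 was the highest and S11 the lowest. Aurka (Aurora A) ranged over 4.32 to 38.8 CPM, Aurkb (Aurora B) over 2.45 to 30.6 CPM and Incenp, the scaffold of the passenger complex, over 8.22 to 63.7 CPM, all with the highest level in WT 12M S6.

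Spindle checkpoint genes keep the APC/C inactive until all kinetochores are attached. Ttk (Mps1 kinase) had 1.52 to 6.10 CPM in Het 12M (median 4.85), against 2.58, 2.81, 11.3 and 12.8 CPM in WT 12M. In Het 3M there were 2.84, 3.38 and 3.97 CPM, and in WT 3M 1.72, 1.78, 3.17 and 5.17 CPM. Its 2 highest cultures were WT 12M S13 and S6, above every Het 12M culture. Bub1 ranged over 2.25 to 19.7 CPM, Bub1b (BubR1) over 4.42 to 42.5 CPM and Mad2l1 (Mad2) over 9.30 to 39.2 CPM. Among the kinetochore genes, Nuf2, a subunit of the Ndc80 microtubule-binding complex, had 6.17 to 21.9 CPM in Het 12M (median 18.1), against 8.44, 9.54, 29.7 and 41.2 CPM in WT 12M. Het 3M had 6.77, 9.01 and 14.1 CPM and WT 3M 5.22, 6.15, 6.40 and 11.3 CPM. S6 and S13 were again the highest, and 4 of the 6 Het 12M libraries lay above every 3-month library. Its partners Ndc80, Spc24 and Spc25 ranged over 2.77 to 23.5 CPM, 1.27 to 26.3 CPM and 8.87 to 39.3 CPM. Cenpa, the histone H3 variant of centromeres, had 6.07 to 49.9 CPM in Het 12M (median 11.4) and 8.21, 8.26, 8.46 and 35.5 CPM in WT 12M. Levels were 5.97, 6.70 and 6.77 CPM in Het 3M and 4.04, 5.22, 6.26 and 11.6 CPM in WT 3M. Cenpa was high in Het 12M S15 and WT 12M S6, whereas the other 3 WT 12M libraries lay within the 3-month range. The outer kinetochore genes Cenpe, a motor, and Cenpf ranged over 1.03 to 27.6 CPM and 0.49 to 28.8 CPM.

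Spindle and motor genes include Kif4, a chromokinesin, which had 3.67 to 15.8 CPM in Het 12M (median 12.0), against 4.82, 6.86, 23.0 and 37.7 CPM in WT 12M. In Het 3M there were 6.31, 7.02 and 9.70 CPM, and in WT 3M 3.99, 5.24, 5.96 and 9.55 CPM. For Kif4, S6 and S13 were the highest libraries and Het 12M S11 the lowest. Kif11 (Eg5, the motor that separates spindle poles) ranged over 3.92 to 33.2 CPM, Kif2c (a microtubule depolymerase) over 3.08 to 38.7 CPM and Tpx2 (an activator of Aurora A) over 12.5 to 114 CPM, each with its maximum in WT 12M S6. Het 12M S15 followed S6 for Kif2c, and WT 12M S13 did so for Kif11 and Tpx2. The spindle-associated Nusap1, Dlgap5, Hmmr and Ckap2 ranged over 4.77 to 25.5, 4.90 to 35.9, 4.95 to 33.7 and 20.2 to 72.1 CPM. Of the cytokinesis genes, Prc1, which bundles the central spindle, ranged over 12.3 to 120 CPM, and the motors Kif20a and Kif23 over 10.4 to 64.5 CPM and 4.85 to 47.0 CPM. Anln (anillin), the RhoA exchange factor gene Ect2 and Racgap1, the partner of Kif23 in centralspindlin, ranged over 12.1 to 88.1, 3.85 to 23.4 and 9.57 to 77.5 CPM. The maximum of each of these 6 was in WT 12M S6, except for Ect2 with its maximum in WT 12M S13.

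The transcription factor genes had their maxima in the same library. Foxm1 had 4.36 to 17.5 CPM in Het 12M (median 10.6), against 7, 9.93, 18.4 and 51.2 CPM in WT 12M. Het 3M had 6.42, 6.60 and 7.96 CPM and WT 3M 3.99, 7.36, 9.46 and 10.4 CPM. Its 5 highest libraries were all of 12 months. Mybl2, which encodes B-Myb, had 0.44 to 3.34 CPM in Het 12M (median 1.70), against 0.69, 1.63, 3.71 and 9.12 CPM in WT 12M. Levels were 0.67, 0.97 and 1.19 CPM in Het 3M and 0.75, 1.08, 1.20 and 2.01 CPM in WT 3M. WT 12M S6 held the highest level of both, and Het 12M S11 the lowest of Mybl2.

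**Figure D2:**
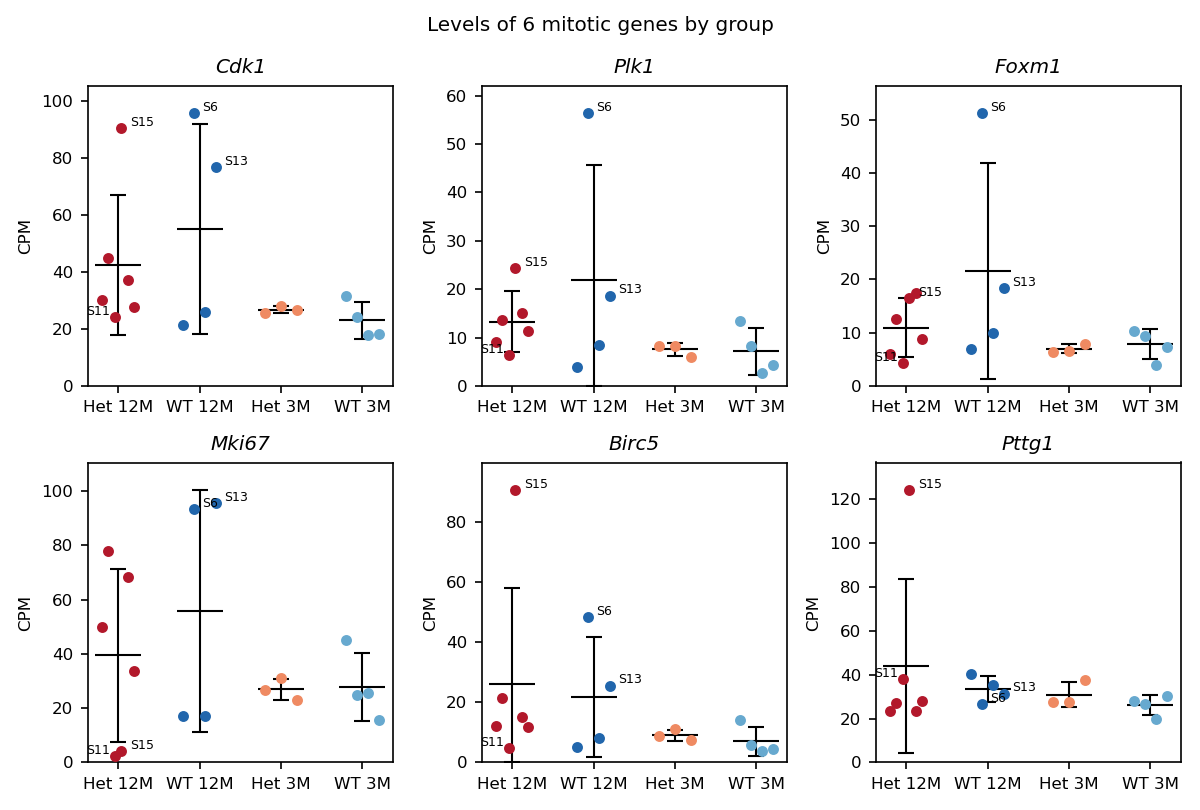
CPM of 6 genes in each library (points) by group, with the group mean (wide bar) and 1 SD (error bars, ended at 0 where they would pass below it). WT 12M S6 and S13 and Het 12M S15 and S11 are named: S6 reaches 95.8 CPM for Cdk1 and 51.2 CPM for Foxm1, and S15 reaches 124 CPM for Pttg1 but 4.32 CPM for Mki67.

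In Het 12M against WT 12M cultures, no gene of the 45 was called, and their levels overlapped throughout. Of the 45 fitted log2 differences 6 were above 0 and 39 below, with a median of -0.38 against 0.05 over all 14897 genes tested. The lowest belonged to the transcription factors Mybl2 and Foxm1, and the highest, at 0.39, to Pttg1. The difference of Foxm1 was -0.98 ± 0.50 (SE), that of Mybl2 -1.11 ± 0.63, that of the separase gene Espl1 -0.89 ± 0.54, that of Ttk -0.74 ± 0.50 and that of Mki67 -0.50 ± 0.74. In the same order, the edgeR adjusted p-values were 0.627, 0.658, 0.676, 0.703 and 0.872. Without WT 12M S6 the difference was -0.11 for Foxm1, -0.20 for Mybl2, 0.02 for Espl1, -0.45 for Ttk and -0.13 for Mki67. Without WT 12M S13 that of Ttk was -0.35 and that of Mki67 -0.13. Of the 4 spindle checkpoint genes and the 6 cytokinesis genes all 10 were fitted below 0, and of the 5 cyclin and Cdk genes 3 were. edgeR's quasi-likelihood test called 0 of the 45 and 0 of all genes (0%), and at an unadjusted p under 0.05 it held 0 of the 45 against 8.36% of all genes. DESeq2 called 0 of the 45 and 0.723% of all genes, and voom with quality weights called 0 and 1.15%. The groups did not overlap for 0 of the 45 genes and 1.32% of all genes. The range of the 4 WT 12M libraries enclosed all 6 Het 12M libraries for 18 of the 45, a count not taken over all genes. The direction rested on 1 library, since the median was 0.23 without WT 12M S6, with 29 of 45 above 0. It was -0.23 without WT 12M S13, -0.19 without Het 12M S11, and -0.64 and -0.62 without WT 12M S2 and S7. Without Het 12M S15 it was -0.49, with 0 of 45 above 0 and 2 at an unadjusted p under 0.05. The count at that p was 6 without WT 12M S2 and 1 without WT 12M S7 or without Het 12M S16. The share of all genes at that p was not taken in these fits. The median was 0.03 without S6 and Het 12M S9 and S15, and 0.30 under voom with quality weights.

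In Het 3M against WT 3M cultures, none of the 45 genes was called. The fitted differences ran from -0.42 to 0.45, with 35 above 0, 10 below and a median of 0.13 against -0.02 over all genes tested. The difference was 0.41 ± 0.42 (SE) for Spc25, 0.45 ± 0.53 for Nuf2, -0.40 ± 0.65 for Espl1, 0.33 ± 0.55 for Hmmr, which encodes a spindle assembly factor, and -0.05 ± 0.89 for Mki67, and the edgeR adjusted p of each was 1. Without Het 3M S10 the difference was 0.11 for Nuf2, 0.11 for Hmmr and 0.25 for Spc25, and without WT 3M S3 it was -0.24 for Espl1 and 0.29 for Mki67. All 8 spindle and motor genes and all 5 cyclin and Cdk genes were fitted above 0, and both transcription factors below. edgeR called 0 of the 45 and 0% of all genes, and at an unadjusted p under 0.05 held 0 of the 45 against 1.60% of all genes. DESeq2 called 0 of the 45 and 0% of all genes, voom with quality weights 0 of the 45 and 8.67%, and the groups did not overlap for 0 of the 45 and 6.78% of all genes. The median was 0.45 without WT 3M S3, the highest library of its group, -0.03 without Het 3M S10 or without WT 3M S12. It was 0.06 without WT 3M S4, 0.08 without WT 3M S5 and 0.21 without Het 3M S14. The median was -0.26 under voom with quality weights, 0.25 with labelled sex as a term and 0.07 from technical replicate 1 alone.

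In WT 12M against WT 3M cultures, all 45 genes were fitted higher at 12 months, from 0.32 for Ckap2 to 1.89 for Spc24, with a median of 1.21 against 0.04 over all genes tested. By role, median differences ran from 1.00 for chromosome structure to 1.61 for the mitotic kinases and the passenger complex. The difference was 1.61 ± 0.50 (SE) for Nuf2, 1.55 ± 0.56 for Kif4, 1.26 ± 0.47 for Cdk1, 1.47 ± 0.56 for Foxm1 and 1.00 ± 0.83 for Mki67. Their edgeR adjusted p-values were 0.552, 0.567, 0.567, 0.578 and 0.717. Without WT 12M S6 the difference was 1.12 for Nuf2, 0.89 for Kif4, 0.84 for Cdk1, 0.58 for Foxm1 and 0.62 for Mki67, and without S13 it was 0.62 for Mki67. None passed the test: edgeR called 0 of the 45 and 0% of all genes, DESeq2 0 and 0.361%, and voom with quality weights 0 and 10.1%. At an unadjusted p under 0.05, 23 of the 45 were higher, against 4.67% of all genes tested. The groups did not overlap for 0 of the 45, against 8.10% of all genes. The 4 WT 12M libraries lay in 2 pairs. S6 and S13 were both above S2 and S7 for 44 of the 45 genes and above all 4 WT 3M libraries for 40, whereas S2 and S7 both lay within the WT 3M range for 29. The pairs were seen in the values, and these counts only describe them. The same counts were not taken over all genes tested, so they do not show whether the split is particular to these genes. S6 also had 11 of the 12 Schwann and neural crest markers above 1 CPM, at 1359 CPM in sum, against 4 to 9 in the other libraries, and their part in the result was not tested. S13 had 33.6 CPM of them, the lowest sum of its group. Macrophage markers ran the other way: their summed level was 49.9 CPM in S6 and 72.3 CPM in S13 (8 of 15 markers above 1 CPM in each), against 3110 CPM in S2 and 1414 CPM in S7 (15 of 15). With the 37.3 CPM of Het 12M S15 (5 of 15 markers above 1 CPM and 3 at 0), the 3 libraries with the highest sum of the 45 genes had the 3 lowest macrophage sums of the series. The next lowest macrophage sums were 160 CPM in Het 3M S14 and 166 CPM in WT 3M S12. These libraries had 528 and 387 CPM of the 45 genes. Het 12M S9, with 41236 CPM of macrophage markers, had 957 CPM of the 45 genes. The part of macrophage content in the result was not tested. Without S6 the median was 0.56 and 1 of the 45 was at an unadjusted p under 0.05. That count was 9 without S13, 36 without S2, 9, 3 and 4 without WT 3M S4, S5 and S12, and 2 without S6 and the Het 12M libraries S9 and S15. With quality weights voom gave a median of -0.30, with 4 of 45 above 0, and without the weights it gave 0.90, with 45 of 45 above 0 and 2 at an unadjusted p under 0.05. Those weights were 7.32 for WT 3M S3, the WT 3M library with the highest summed level of these genes, and 0.306 to 1.96 for the other WT 3M libraries. They were 0.327 and 0.449 for WT 12M S6 and S13 against 1.57 and 2.04 for S2 and S7.

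In Het 12M against Het 3M cultures, all 45 genes were fitted higher at 12 months, from 0.06 for Smc2 to 1.52 for Cenpa, with a median of 0.65 against 0.07 over all genes tested. The 6 largest were those of Cenpa, Birc5, Cdc25c, Spc24, Ube2c and Ccnb2, whose coding sequences have at most 1341 bases. The difference was 1.52 ± 0.67 (SE) for Cenpa, 1.39 ± 0.63 for Cdc25c, 1.28 ± 0.72 for Ccnb2, 1.51 ± 0.86 for Birc5 and 0.55 ± 0.84 for Mki67. The edgeR adjusted p was 0.946 for the first 4 and 0.949 for Mki67. edgeR called 0 of the 45 and 0% of all genes, DESeq2 0 of the 45 and 0.00682%, and voom with quality weights 0 of the 45 and 0.00671%. At an unadjusted p under 0.05, 2 of the 45 were higher, Cenpa and Cdc25c, against 1.56% of all genes tested. The groups did not overlap for 0 of the 45, against 1.91% of all genes. Leaving out Het 12M S15 gave 0.90 for Cenpa, 0.89 for Cdc25c, 0.54 for Ccnb2 and 0.50 for Birc5, a median of 0.53 and 0 of the 45 at an unadjusted p under 0.05. That count was also 0 without each of the 3 Het 3M libraries, 1 without Het 12M S1, S9 or S16 and 3 without S11. The sexes are unevenly divided between these groups, and the labels go with the sex-linked transcripts in both. With labelled sex as a term 0 of the 45 were at an unadjusted p under 0.05, and the median was 0.45. The differences were 0.98 for Cenpa, 1.03 for Cdc25c, 0.68 for Ccnb2 and 0.92 for Birc5. The sex term was shared by all libraries, among them those of WT 12M, whose labels went against their transcripts. These values are thus not a clean adjustment for sex. The median was 0.24 under voom with quality weights and 0.43 without Het 12M S9 and S15.

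The change of the genotype difference with age, taken as Het minus WT at 12 months less Het minus WT at 3 months, was fitted below 0 for 40 of the 45 genes and above 0 for 5, with a median of -0.48 against 0.08 over all genes tested. It was -0.93 ± 0.69 (SE) for Nuf2 and -1.0 ± 0.77 for Kif4, with an edgeR adjusted p of 0.961 for both, and without WT 12M S6 it was -0.45 for Nuf2 and -0.36 for Kif4. edgeR called 0 of the 45 and 0% of all genes, DESeq2 0 of the 45 and 0.239%, and voom with quality weights 0 of the 45 and 6.30%. At an unadjusted p under 0.05 edgeR held 0 of the 45 against 5.76% of all genes. The median was 0.14 without WT 12M S6, -0.32 without Het 12M S11, -0.31 without WT 3M S12, between -0.73 and -0.79 without WT 12M S2, WT 12M S7 or WT 3M S3, -0.05 without S6 and Het 12M S9 and S15, and 0.58 under voom with quality weights.

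**Figure D3:**
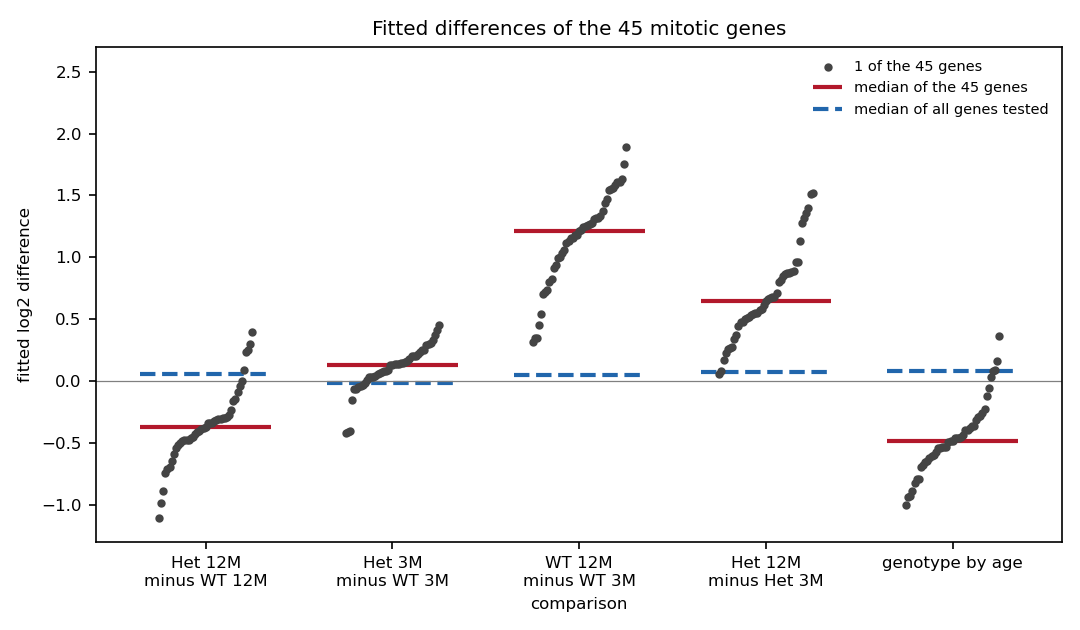
Fitted log2 difference of each of the 45 genes (points, in rising order) in the 4 comparisons and in the change of the genotype difference with age, with the median of the 45 (solid line) and of all genes tested (dashed line). The medians of the 45 are -0.38, 0.13, 1.21, 0.65 and -0.48 from left to right, and no point passed the test.

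Other genes of the cell cycle were read from lists. In WT 12M against WT 3M, 53 of 55 other mitotic genes tested were fitted higher (median 1.03), with 19 higher at an unadjusted p under 0.05. Of the DNA replication and G1/S genes, which act before mitosis, 42 of 42 were fitted higher (median 1.14). At the same unadjusted p 26 of these were higher, against 4.67% of all genes tested. In Het 12M against Het 3M the counts fitted higher were 55 of 55 (median 0.51) and 41 of 42 (median 0.50). In Het 12M against WT 12M they were 12 of 55 (median -0.30) and 4 of 42 (median -0.49), and in Het 3M against WT 3M 33 of 55 (median 0.09) and 31 of 42 (median 0.07). Further genes of the cell cycle machinery are given by other lists. In WT 12M against WT 3M, the median was 0.11 over 15 APC/C subunits, 0.05 over 14 condensin and cohesin genes and 0.07 over 11 DREAM and MuvB genes. The 7 genes of CDK inhibitors, which arrest the cycle, went both ways, with a median of -0.03 and a range from -0.58 for Cdkn1a to 2.60 for Cdkn1c. At an unadjusted p under 0.05 Cdkn1c and Cdkn2c (0.72) were higher, against 4.67% of all genes tested. Voom with quality weights called these 2 higher and Cdkn1a lower, and called 10.1% of all genes. All 3 were named after their values were seen. The APC/C list ran from -0.53 to 0.63, the condensin and cohesin list from -0.77 to 1.65 and the DREAM and MuvB list from -0.60 to 0.49. edgeR called 0 genes of each of these lists in each comparison.
The summed level of the DNA replication and G1/S genes was 614, 677, 679, 774, 982 and 1132 CPM in Het 12M, against 461, 506, 1599 and 1830 CPM in WT 12M. Het 3M cultures held 482, 602 and 670 CPM and WT 3M cultures 485, 573, 589 and 760 CPM. The highest 3 libraries were WT 12M S6, WT 12M S13 and Het 12M S15, as for the sum of the 45 genes. The fitted differences of these lists were not taken again without WT 12M S6 or S13. The APC/C subunits summed to 1259 to 1744 CPM in Het 12M, 1281 to 1334 CPM in WT 12M, 1224 to 1338 CPM in Het 3M and 1063 to 1362 CPM in WT 3M, and in WT 12M this sum was flat across libraries in which that of the 45 genes ran from 395 to 2197 CPM.

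**Figure D4:**
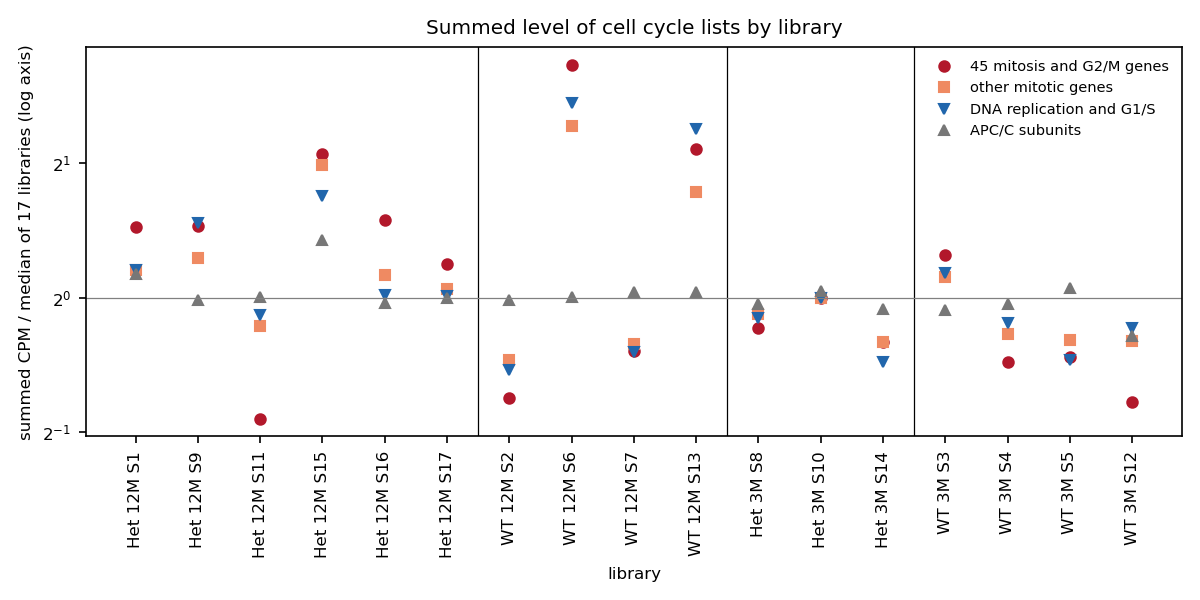
Summed CPM of 4 gene lists in each library over the list's median of 17 libraries (log axis), with libraries by group. The 45 genes, the other mitotic genes and the DNA replication and G1/S genes are all high in WT 12M S6, WT 12M S13 and Het 12M S15, and the APC/C subunits stay closer to 1 in each of these.

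Within the 45 genes, levels in Het 12M S15 and S11 went with the length of the coding sequence, which runs from 402 bases for Cenpa to 9531 bases for Mki67. Het 12M S15 was above all other Het 12M libraries for 24 genes, with 90.8 CPM of Birc5 (420 bases), 98.6 CPM of Ube2c (537 bases) and 124 CPM of Pttg1 (597 bases), which are 7.53, 5.15 and 4.61 times the median of the other Het 12M libraries. The same library had 4.32 CPM of Mki67, 0.85 CPM of Cenpf (8991 bases) and 2.49 CPM of Smc2 (3573 bases), which are 0.0867, 0.0516 and 0.0754 times that median. Het 12M S11 was below all other Het 12M libraries for 41 of the 45 genes, and most so for Cenpf (0.49 CPM), Mki67 (2.50 CPM) and Cenpe (1.03 CPM, 7413 bases). The counts of 24 and 41 were not taken over all genes. Among all libraries of the series, S15 was the highest for 22.5% and the lowest for 28.8% of all genes tested. S11 was the lowest for 26.7% of the 45 and 3.26% of all genes. Summed over the 10 genes of longest coding sequence against the 10 of shortest, the ratio was 0.258 in S15 and 0.536 in S11, against 1.37 to 1.99 in the other 4 Het 12M libraries, 0.874 to 1.56 in WT 12M, 1.21 to 1.32 in Het 3M and 1.06 to 1.98 in WT 3M. Across the 45 genes, Spearman's rho between coding length and the level relative to the gene's mean was -0.76 in S15 and -0.49 in S11, as a description over genes that share each library. It was -0.38 in S15 and -0.22 in S11 over the 13571 tested genes with a coding length. In the other 15 libraries it ran from -0.18 to 0.76 over the 45 and from -0.12 to 0.39 over all genes. The highest of these, 0.76, was in Het 12M S16. Removing each library's trend on coding length over all genes gave medians of -0.33 for Het 12M against WT 12M, 0.17 for Het 3M against WT 3M, 1.26 for WT 12M against WT 3M and 0.77 for Het 12M against Het 3M. Leaving out both S11 and S15 gave -0.29 for Het 12M against WT 12M and 0.71 for Het 12M against Het 3M, and 0.04 for Mki67 in Het 12M against WT 12M.

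**Figure D5:**
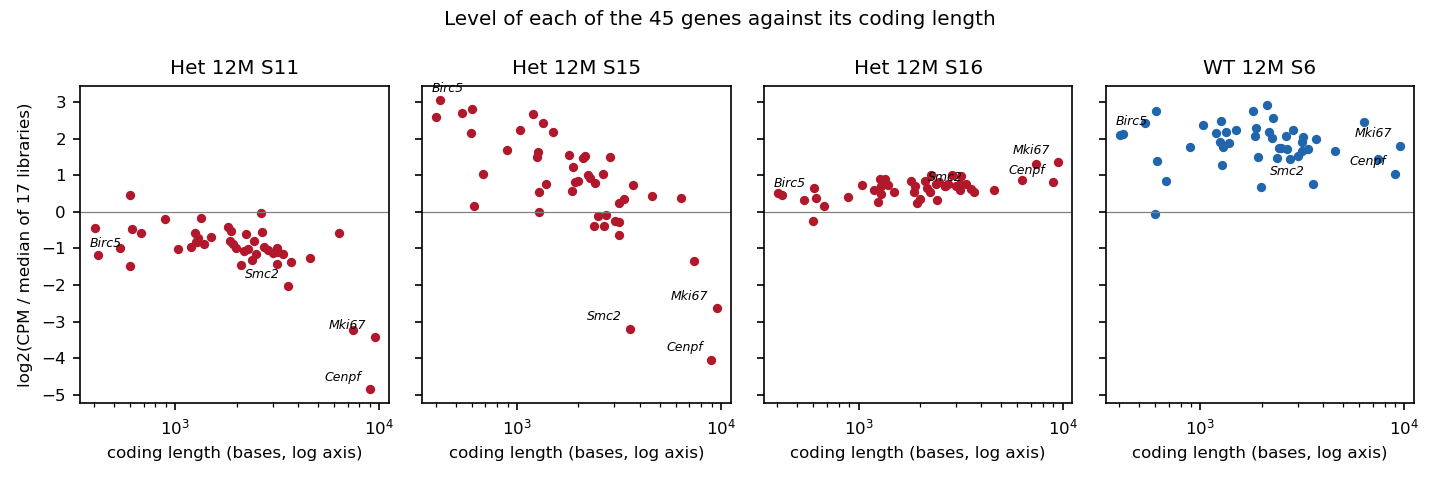
log2 of CPM over the gene's median of 17 libraries for the 45 genes (points) against coding length in bases (log axis) in 3 Het 12M libraries and 1 WT 12M library. In Het 12M S15 and S11 the longest genes lie lowest, with Cenpf at 0.85 and 0.49 CPM, in Het 12M S16 they lie highest, and in WT 12M S6 nearly all 45 are high.

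The reads were not strand-marked, so reads of overlapping genes cannot be told apart. The annotated spans of 18 of the 45 genes overlap another gene. For Kif20a the overlap with Cdc23, a gene of 60.3 CPM on average, is 4930 bases, and for Prc1 that with Rccd1 (8.85 CPM) is 21669 bases. The longest, of 62763 bases, is that of Kif4 with Gm52438, a non-coding RNA gene that was not among the genes tested. A span includes introns, so its length does not give the share of reads affected. The levels of the 18 genes are thus less certain, and by how much was not tested.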

How the data were processed

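RNA from cultured long-bone mesenchymal stromal cells was made into TruSeq RNA v2 libraries, a kit without strand marking, per the labels' protocols. Raw counts of reads for each Entrez gene are the deposited values; Subread, featureCounts and mm10 are named in the submitters' processing notes, with versions not given in the sources used here. Each of 17 libraries has 4 technical replicate columns, which differed by little more than counting error (chi-square per degree of freedom 1.01 to 1.07, against 14.5 to 615 between biological samples) and were summed, so that 68 columns became 17 samples. The labels do not say whether each sample is 1 mouse, so p-values measure the spread between these cultures.

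The 45 genes, the lists and the alternatives were chosen with earlier results of these data known. Identifiers were matched to symbols through RefSeq GRCm38.p6; 1904 had none and held 0.573% of counts. Python 3.11.15 with pandas 2.3.3 and R 4.3.3 were used. edgeR 4.0.16 was fitted to all 17 libraries with 1 term per group, TMM scaling, filterByExpr, and quasi-likelihood tests (2-sided, Benjamini-Hochberg over 14897 genes, threshold 0.05). The biological coefficient of variation was 0.512. All 45 genes passed the filter. Library totals of 13687876 to 28597221 counts set the counting precision. Labelled sex was not a term because sex-linked transcripts went against it in WT 12M. As an alternative it was a term shared by all groups, so each fit with it also rests on the WT 12M labels. DESeq2 1.42.0 and limma 3.58.1 (voom with sample quality weights), other scalings and filters, technical replicate 1 alone, prior counts and left-out libraries were alternatives; leaving out Het 12M S11 and S15, removing the coding length trend (loess, span 0.5) and voom without weights were chosen after the values were seen. Coding length is the longest coding sequence of a gene in GENCODE M21 (GRCm38), known for 91.1% of tested genes. The edgeR step was tested on simulated data. A fitted difference with SE is given per comparison for the 4 genes of smallest p and for Mki67, and for 2 genes in the interaction. The SE was derived from the test, as the size of the difference over the square root of the quasi-likelihood F statistic.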

Additional observations from a re-analysis of the deposited data

Results flagged for a closer look

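In 16 of 135 combinations of a gene and a group of 4 or more libraries, the highest or lowest library stood apart from the others of its group by Dixon's 95% criterion, which chance alone meets in about 1 in 20 groups. The genes share libraries, so the 16 are not independent. Of these, 10 were in Het 12M S15, which stood above the other Het 12M libraries with 56.2 CPM of Ccnb2, 90.5 CPM of Cdk1, 12.6 CPM of Cdc25c, 73.3 CPM of Cdc20, 98.6 CPM of Ube2c, 124 CPM of Pttg1, 29.2 CPM of Aurka, 27.8 CPM of Aurkb, 90.8 CPM of Birc5 and 26.3 CPM of Spc24. Het 12M S11 stood below its group with 3.67 CPM of Ccnb1 and 5.73 CPM of Bub1b. WT 12M S6 stood above its group with 39.4 CPM of Ccnb2 and 35.5 CPM of Cenpa. WT 3M S3 stood above its group with 6.35 CPM of Ccnb1 and 7.67 CPM of Bub1.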

How the results depend on the processing

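No paired analysis was possible because the replicate numbers shared between groups in the labels are technical replicates of 1 library, which were summed, and the numbers of the biological samples are not shared. Under each alternative, edgeR, DESeq2 and voom called 0 of the 45 genes in each comparison. The median difference of the 45 genes moved by more than the spread between libraries (1 SD) only with voom and quality weights. It went to -0.30 for WT 12M against WT 3M and 0.58 for the change of the genotype difference with age. That SD was wide, at 0.91 for Het 12M against WT 12M and 0.93 for WT 12M against WT 3M. A change of sign, as from -0.38 to 0.23 in Het 12M against WT 12M without WT 12M S6, thus fell within it. The weights ran from 0.118 for Het 12M S15 to 8.88 for Het 3M S8. With the same weights the difference was 0.041 for Ttk in Het 12M against WT 12M, -0.0187 for Hmmr in Het 3M against WT 3M, -0.017 for Kif4 and -0.64 for Mki67 in WT 12M against WT 3M, -0.46 for Mki67 in Het 12M against Het 3M, and 0.17 for Kif4 in the change with age, each of the opposite sign to that reported. Voom without weights gave opposite signs for Mki67, at 0.0499 in Het 3M against WT 3M and -0.31 in Het 12M against Het 3M. The Mki67 difference in Het 3M against WT 3M, close to 0, was 0.0283 with labelled sex as a term and 0.18 with the length trend removed, and Mki67 in Het 12M against WT 12M was 0.0419 without Het 12M S11 and S15. Leaving out each library in turn gave medians of -0.64 to 0.23 for Het 12M against WT 12M, -0.03 to 0.45 for Het 3M against WT 3M, 0.56 to 1.54 for WT 12M against WT 3M, 0.53 to 0.78 for Het 12M against Het 3M and -0.79 to 0.14 for the change with age. It gave -1.24 to 0.0191 for Espl1 in Het 12M against WT 12M and -0.24 to 0.29 for Mki67 in Het 3M against WT 3M. A fit of WT 12M and WT 3M alone held 7 of the 45 at an unadjusted p under 0.05, against 23 with all groups. Scaling by RLE or by library totals kept the sign of each median. The cause of these differences was not tested. Lowly counted genes such as Mybl2, with as few as 9 counts, have the least precise values.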
